A study of Caenorhabditis elegans with 2 samples.

Results

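The genes described here are 10 regulators of epidermal fate in Caenorhabditis elegans, lin-26, elt-1, elt-3, egl-18, elt-6, nhr-23, nhr-25, ceh-16, blmp-1 and grh-1, out of 19973 protein-coding genes. They were chosen by name. APTF-2 binding was read in a promoter window, which reached from 1000 bp before to 200 bp after each annotated protein-coding start of a gene, with the windows of several starts joined. A gene was counted as bound in a list when the summit of a listed peak, its point of highest enrichment, lay in the window.

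The binding data came from chromatin immunoprecipitation followed by sequencing (ChIP-seq). Both libraries used strain RW12304, genotype st12304[aptf-2::TY1::EGFP::3xFLAG] IV, in which CRISPR had inserted a TY1, EGFP and 3xFLAG tag at the endogenous aptf-2 gene. Whole young adults aged 61.5 h were used after synchronisation as L1 larvae starved after bleaching, the chromatin was sonicated to fragments of 200 to 800 bp, and the tagged protein was precipitated with an antibody against GFP. The labels give 2 biological replicates of this 1 group, with 1 technical replicate each. Both replicates carry the tag, no untagged animals were analysed here, and the control library was not analysed here. Whole animals mix all tissues, so binding in the epidermis cannot be told apart from binding in other cells, and a site used in few cells can be missed. No tissue could be checked against marker genes, because peak lists hold no expression.

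APTF-2 belongs to the AP-2 family of transcription factors and is known for its role in the epidermis of the embryo, where it takes part in the enclosure of the embryo by epidermal cells. The epidermis of the worm consists of large syncytia and of seam cells, stem-like cells in lateral rows that divide at each larval stage. Its fate is set by a cascade in which the GATA factor ELT-1 acts early, LIN-26 and ELT-3 act after it, EGL-18, ELT-6 and CEH-16 keep seam cells from fusing, and NHR-23, NHR-25, BLMP-1 and GRH-1 act in the molting cycle and in making cuticle.

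APTF-2 signal was located at the following stretches of 4 of the genes, read from the RefSeq genome of WBcel235, the assembly also called ce11, on the plus strand from 5′ to 3′. The lin-26 stretch is the middle of the single peak in a promoter window of these genes that the authors kept in their conservative list of peaks. It is held to 30 bases because the peak touches an untranslated region of a neighbour, and its capital marks the summit base. The other 3 are the 201 bp around a summit of the longer list in which the authors ranked all peaks, in a coding exon of elt-1, in the first coding exon of elt-6 and in an intron of egl-18. Their capitals mark GATAA or its complement TTATC, the core that GATA factors read, which the elt-6 stretch does not hold.
lin-26 chrII:7682018-7682047: catcataaggaggaTacgcagcacaccggt
elt-1 chrIV:9616813-9617013: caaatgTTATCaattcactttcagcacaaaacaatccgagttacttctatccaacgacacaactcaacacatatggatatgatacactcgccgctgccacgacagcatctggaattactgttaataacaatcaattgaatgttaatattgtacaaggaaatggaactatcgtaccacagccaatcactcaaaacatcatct
elt-6 chrIV:1917986-1918186: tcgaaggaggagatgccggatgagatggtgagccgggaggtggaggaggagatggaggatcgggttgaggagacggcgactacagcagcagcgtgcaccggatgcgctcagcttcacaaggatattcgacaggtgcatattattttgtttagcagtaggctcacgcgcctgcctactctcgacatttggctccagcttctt
egl-18 chrIV:1908611-1908811: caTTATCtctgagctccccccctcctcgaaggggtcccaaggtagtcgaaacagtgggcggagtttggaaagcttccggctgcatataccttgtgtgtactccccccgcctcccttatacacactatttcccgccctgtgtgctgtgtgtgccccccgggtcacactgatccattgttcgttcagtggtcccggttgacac

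Of the 10 genes, lin-26 alone had a summit of the conservative list in its promoter window (10%, 95% Wilson interval 1.79 to 40.4%, which covers the counting of genes only), against 3.15% of all protein-coding genes. The conservative list holds 892 peaks that the authors drew from both replicates and limited by the irreproducible discovery rate, or IDR. This rate is low for peaks that rank both alike and high in paired peak lists. The deposited IDR score rises as the rate falls, with 1000 as its highest value and 830 standing for a rate of 0.01. The other thresholded list of both replicates, with 832 peaks, had no summit in any of the 10 windows, against 3.07% of all genes. The thresholded list of replicate 1 (350 peaks) and that of replicate 2 (403 peaks) also had none, against 1.46% and 1.7% of all genes. In the ranked list, which holds 94866 peaks down to the lowest scores, a limit of 540, standing for a rate of 0.05, again left only lin-26, against 5.3% of all genes. With no second condition the design gives no contrast to test, so counts stand beside the share over all genes without a p-value.

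Below these limits most of the genes had some peak. In the ranked list 9 of the 10 genes had a summit in the window, elt-3 being the exception, against 75.1% of all genes. In the own ranked list of replicate 1, with 54777 peaks, 7 did, and egl-18, ceh-16 and blmp-1 did not, against 57.1% of all genes. In that of replicate 2, with 51529 peaks, 8 did, and elt-3 and egl-18 did not, against 55.1% of all genes. The joined windows were longer than usual, with a median of 2188.5 bp for the 10 genes and 1201 bp over all genes, because most of these genes have several starts, and a longer window has more room for a summit. Around the 10 genes, out to 5000 bp on each side, the ranked list held 0.776 to 1.76 summits per kb with a median of 0.999, and 0.946 per kb over the genome.

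To set the genes side by side, each was given a place, the percentage of the 19973 protein-coding genes whose window had a lower highest signal in the same list. Signal is the value that the authors' caller gave each peak, on a scale that is not stated. It was compared within a list only, since a list from both replicates holds larger values than a list from 1, and a gene with no summit in its window had the place 0. The median place of the 10 genes was 67.6 in the ranked list of both replicates, 77.1 in that of replicate 1 and 74.4 in that of replicate 2. These medians are not on 1 scale. A summit was in the window of 75.1% of all genes in the joint list, 57.1% in replicate 1 and 55.1% in replicate 2. The rest share the place 0, so the lowest place above 0 is higher in the replicates' lists. In replicate 1 elt-3 had the place 57.7 from a summit of the lowest score. All genes have their median at the middle by construction. In the upper 25% of genes by ranked signal stood 5 of the 10, lin-26, nhr-23, elt-6, elt-1 and grh-1, a share that is 25% over all genes by construction. The count was also 5 in each replicate's own list, with the same genes in replicate 2 and with nhr-25 in place of elt-1 in replicate 1. Among genes whose joined windows were within 10% of the same length, the median place of the 10 was 62.6, and 3 of them, lin-26 at 93.0, elt-6 at 90.1 and nhr-23 at 88.6, were in the upper 25%. elt-1 stood at 72.3 and grh-1 at 63.1 on that scale, so the count of 5 depends on the length of the windows. The other 5 genes were at 62.1 for blmp-1, 31.4 for ceh-16, 26.05 for egl-18, 19.5 for nhr-25 and 0 for elt-3.

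**Figure D1:**
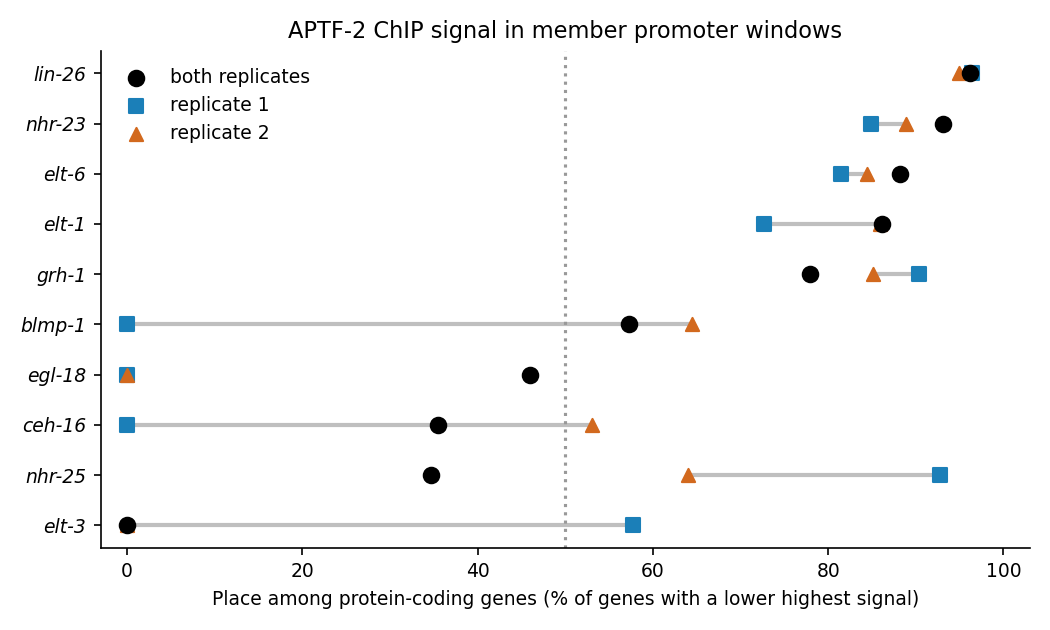
Place of each gene by its highest APTF-2 signal in the promoter window, as the percentage of protein-coding genes with a lower value, in the ranked list of both replicates (circles) and in each replicate's own list (squares and triangles, joined by a grey bar), with the dotted line at 50. lin-26 stood between 94.9 and 96.4 in all 3 lists, whereas elt-3, ceh-16 and blmp-1 had no summit in the window in 1 replicate.

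LIN-26 is a zinc finger protein needed for cells to take on and keep epidermal character. lin-26 (WBGene00003012) lies on chromosome II at 7682198 to 7684764 on the plus strand, with 3 starts. Its window held 1 summit in the ranked list, with a signal of 75.9 and an IDR score of 883. The nearest summits of the replicates' own lists lay in the same window, 37 bp away in replicate 1 with a signal of 42.8, and 21 bp away in replicate 2 with a signal of 38.2. The gene thus stood near the top in each list, at a place of 96.1 in the joint list, 96.4 for replicate 1 and 94.9 for replicate 2. The conservative peak spanned 7681884 to 7682179 with its summit at 7682032, 166 bp upstream of the nearest lin-26 start, and no other gene's window held that summit. The summit fell in a coding exon of lir-1, the upstream neighbour on the same strand, whose annotated span overlaps the start of lin-26. In 1 lir-1 isoform the same bases are annotated as 3′ untranslated region. The sequence around the summit had 1 copy in the genome and a GC content of 47.3%.

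The lin-26 peak was a weak entry of its list. By signal it ranked 814 of 892, and 791 of the listed peaks had a higher IDR score while 100 had a lower one. Its global IDR was 0.00746 in the ranked list behind the conservative list, inside the limit of 0.01. In the other ranked list of both replicates the same peak had a score of 538 and a global IDR of 0.0504, below the lowest score of 830 in the other thresholded list. In the replicates' own ranked lists its scores were 147 and 189. It belongs to the 160 conservative peaks (17.9%) that overlap no peak of the other 3 thresholded lists.

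**Figure D2:**
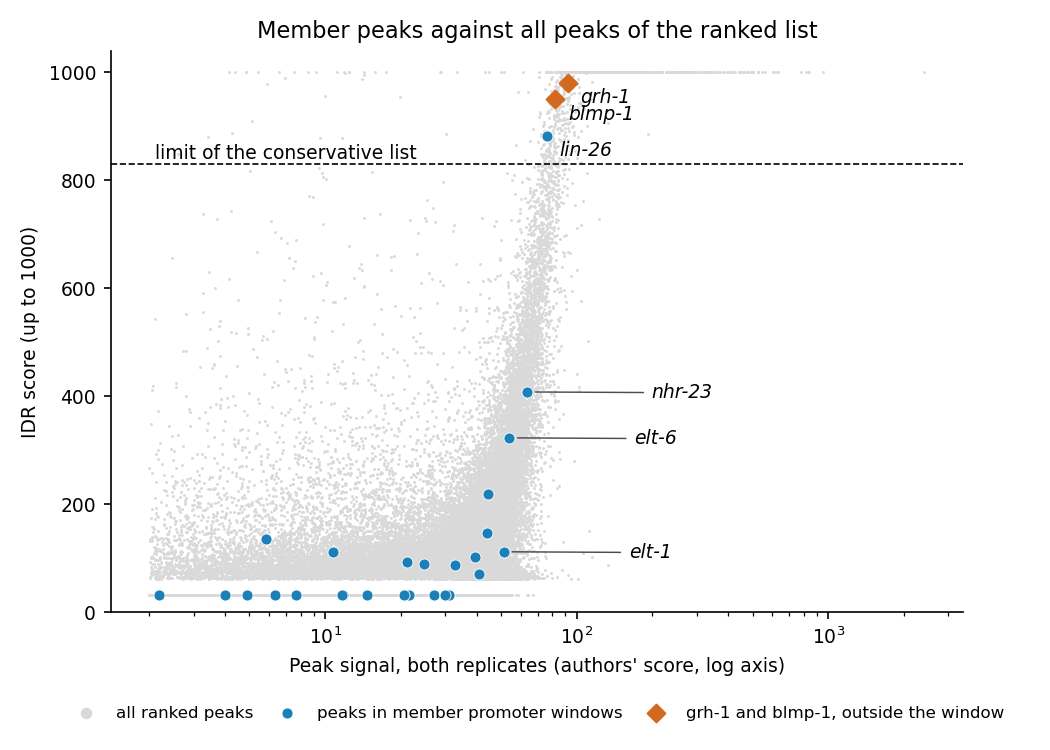
Deposited signal (log axis) against IDR score for all 94866 peaks of the ranked list (grey), for the peaks with a summit in a promoter window of the 10 genes (blue) and for the conservative peaks at grh-1 and blmp-1 that lay outside the window (orange), with the dashed line at the score of 830. lin-26 is the 1 blue point above the line, and the next highest, nhr-23, has a score of 408.

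The 4 GATA factors of the set had no listed promoter peak, and their ranked signals ranged from none to 53.9. In the conservative list 3.15% of all protein-coding genes had one, so none of 4 says nothing about GATA factors as a class. ELT-1 specifies epidermal fate in the early embryo. elt-1 (WBGene00001249; chromosome IV, 9614995 to 9620280, plus strand, 6 starts) had 6 summits in its window. The strongest, 151 bp upstream of a start and in an intron, had a signal of 51.3 and a score of 112. The highest signal was 22.9 in replicate 1, where it belonged to a summit 940 bp upstream of a start, and 28.4 in replicate 2, where it belonged to the site 151 bp upstream. The places of elt-1 were thus 86.2 in the joint list, 72.7 for replicate 1 and 85.9 for replicate 2, and the strongest summit was not the same one in both replicates. A stronger peak lay outside the window in a coding exon of elt-1, 916 bp downstream of the nearest start, with a signal of 58.1 and a score of 299. Its sequence is shown above. Summits of both replicates lay within 41 bp of it, with a signal of 24.5 in replicate 1 and 29.2 in replicate 2. Their own-list scores were 25 in replicate 1 and 56 in replicate 2.

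ELT-3 acts after ELT-1 in epidermal differentiation. elt-3 (WBGene00001251; chromosome X, 13934874 to 13941216, plus strand, 6 starts) had no summit in a window of 3507 bp in the ranked list of both replicates or in that of replicate 2. In replicate 1 it had 1, with a signal of 17.8 and the lowest score of that list, 11. It was the 1 gene of the 10 at place 0 in this joint list. The other ranked list of both replicates had 1 summit in the window, 842 bp upstream of a start, with a signal of 21.8, a score of 30 and a place of 36.7. Its strongest ranked peak anywhere in the gene, in an intron 862 bp downstream of the nearest start, had a signal of 45.7 and a score of 155. The 201 bp at that summit matched 134 places in the genome, itself included, over at least 100 bp at 90% identity or more, and how reads were placed among such copies is not stated for these lists.

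EGL-18 and ELT-6 are a pair of GATA factors, encoded by adjacent genes, that act together in seam cells. egl-18 (WBGene00001186; chromosome IV, 1902322 to 1917840, plus strand, 3 starts) had 2 summits in its window with both replicates. The stronger had a signal of 27.2 and a score of 31, the lowest of that list. Neither replicate's own list had a summit in the window, which makes egl-18 the only gene of the 10 with none in both. Stronger peaks lay elsewhere in the gene. The locus of 25.5 kb has more room for a strong peak than the window of 2410 bp. Of the 10 genes only lin-26 had the strongest peak of its locus inside the window. The strongest peak at egl-18, 2157 bp upstream of the nearest start in an intron, had a signal of 59.8 and a score of 227. The peak of highest score, 4735 bp upstream of the nearest start and in an intron, had a signal of 59.0, a score of 433 and a global IDR of 0.0903. Replicate summits lay within 5 bp of it, with signals of 31.7 in replicate 1 and 28.4 in replicate 2. Their own-list scores were low, 25 in replicate 1 and 26 in replicate 2. Its sequence, shown above, had a GC content of 57.2%.

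elt-6 (WBGene00001253; chromosome IV, 1917977 to 1921643, plus strand, 1 start) had 3 summits in its window. The strongest lay in the first coding exon, 109 bp downstream of the start, with a signal of 53.9, a score of 323 and a global IDR of 0.166. The replicates placed it within 3 bp, with a signal of 26.6 and a score of 24 in replicate 1, and 27.5 and 71 in replicate 2. This was the closest placement of a strongest promoter summit among the 10 genes, and the places of elt-6 were 88.2 in the joint list, 81.5 for replicate 1 and 84.4 for replicate 2. The window was of the usual length, 1201 bp, and the place among genes with like windows was 90.1. A window from 500 bp before to 100 bp after the start leaves out the strongest summit, and the place was then 61.8. Much of the 1201 bp window lies inside egl-18, which ends at 1917840 on the same strand. The weaker summits of the window, at 1917689 and 1917154, fell within egl-18. The strongest peak near elt-6, with a signal of 57.3 and a score of 151, lay in an intron of denn-4. The GC content at the summit was 55.7%, as its sequence above shows, and that of the whole window was 44.5%, against a median of 35.0% over the windows of all genes.

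Both nuclear receptors of the set act in molting. NHR-23 drives the molting cycle, and nhr-23 (WBGene00003622; chromosome I, 7214745 to 7221299, plus strand, 6 starts) had 5 summits in the longest window of the set, 4357 bp. The strongest lay in an intron 62 bp upstream of a start, with a signal of 63.3, a score of 408 and a global IDR of 0.104. The replicates placed it within 17 bp, with a signal of 28.5 and a score of 24 in replicate 1, and 30.4 and 47 in replicate 2. nhr-23 was second of the 10 by signal, at places of 93.2 in the joint list, 84.9 for replicate 1 and 88.8 for replicate 2, and at 88.6 among genes with like windows. A stronger peak 5295 bp downstream of its nearest start, with a signal of 79.2 and a score of 479, lay 43 bp upstream of the start of swsn-9.

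NHR-25 takes part in molting and in the contacts and shape of epidermal cells. nhr-25 (WBGene00003623; chromosome X, 13008493 to 13013964, plus strand, 3 starts) had 1 summit in its window in the ranked list and in each replicate's own list, but not at 1 site. In the joint list it lay 785 bp upstream of a start, with a signal of 20.6 and a score of 31. In replicate 1 it lay 45 bp downstream of a start with a signal of 34.9, and in replicate 2 it lay 85 bp upstream of a start with a signal of 19.02. The place of nhr-25 was 34.7 in the joint list, 92.8 for replicate 1 and 64.0 for replicate 2, so its order depended on the list. The other ranked list of both replicates had 2 summits in the window, 56 bp downstream and 86 bp upstream of a start, and the stronger had a signal of 35.8, for a place of 63.4.

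CEH-16, the engrailed homeobox protein of the worm, keeps seam cells apart from the syncytium. ceh-16 (WBGene00000439; chromosome III, 8622735 to 8626314, plus strand, 2 starts) had 4 summits in its window. The strongest, 497 bp upstream of a start, had a signal of 21.2 and a score of 93. Replicate 1 had no summit in the window, and replicate 2 had 1 with a signal of 14.8. The gene stood below the middle with both replicates, at a place of 35.5. The strongest peak near the gene lay 46 bp upstream of the start of polk-1, with a signal of 76.7 and a score of 307. In replicate 2 its summit had a signal of 54.6 and a score of 633, whereas the nearest summit of replicate 1 was 967 bp away.

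BLMP-1, the worm's BLIMP-1 zinc finger protein, acts in the molting cycle and in developmental timing. blmp-1 (WBGene00003847; chromosome I, 10409302 to 10414773, plus strand, 1 start) had 1 summit in its window, in the first coding exon 155 bp downstream of the start, with a signal of 32.7 and a score of 87. Replicate 1 had no summit in the window. Replicate 2 had 2, the stronger 928 bp upstream of the start with a signal of 19.1. The other, at the joint site, had a signal of 13.7 and a score of 13, the lowest of its list. The place was 57.3 with both replicates and 64.4 in replicate 2, where it came from the upstream summit. A conservative peak lay beyond the gene's 3′ end at 10417032 to 10417327, 7878 bp from its start, with a signal of 82.3, a score of 951 and rank 729 by signal in the conservative list. It was between blmp-1 and maph-1.2, a gene that runs towards it, whose start was the nearest at 4678 bp. Including itself, this sequence matched 7 places in the genome. The replicates had summits 58 bp away in replicate 1 with a signal of 42.3 and 32 bp away in replicate 2 with a signal of 42.5. Their own-list scores were 303 in replicate 1 and 472 in replicate 2.

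GRH-1, the worm's Grainyhead protein, acts in making cuticle and in the integrity of the epidermis. grh-1 (WBGene00001707; chromosome I, 1258201 to 1268155, minus strand, 3 starts) had 4 summits in its window. The strongest lay in an intron, 169 bp past a start, and had a signal of 44.0 and a score of 147. The highest signal in the window was 32.2 in replicate 1, at a summit 179 bp upstream of one start, and 27.8 in replicate 2, at a summit 105 bp downstream of another. The replicates thus had their strongest promoter summits at different starts, and the nearest summit of replicate 1 was 704 bp from the strongest joint site. The places were 77.9 in the joint list, 90.4 for replicate 1 and 85.1 for replicate 2. The strongest peak of any of the 10 loci lay outside this window, at 1262973 to 1263268 in a coding exon of grh-1, 884 bp downstream of the nearest start. It was in the conservative list with a signal of 92.1, a score of 981 and rank 575 of 892 by signal. Replicate summits were 11 bp away in replicate 1 with a signal of 48.8 and 21 bp away in replicate 2 with a signal of 40.2. In their own lists these had scores of 338 in replicate 1 and only 32 in replicate 2. In the other ranked list of both replicates its score was 464, with a global IDR of 0.076, and it is absent from the other thresholded list, as the lin-26 peak is.

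**Figure D3:**
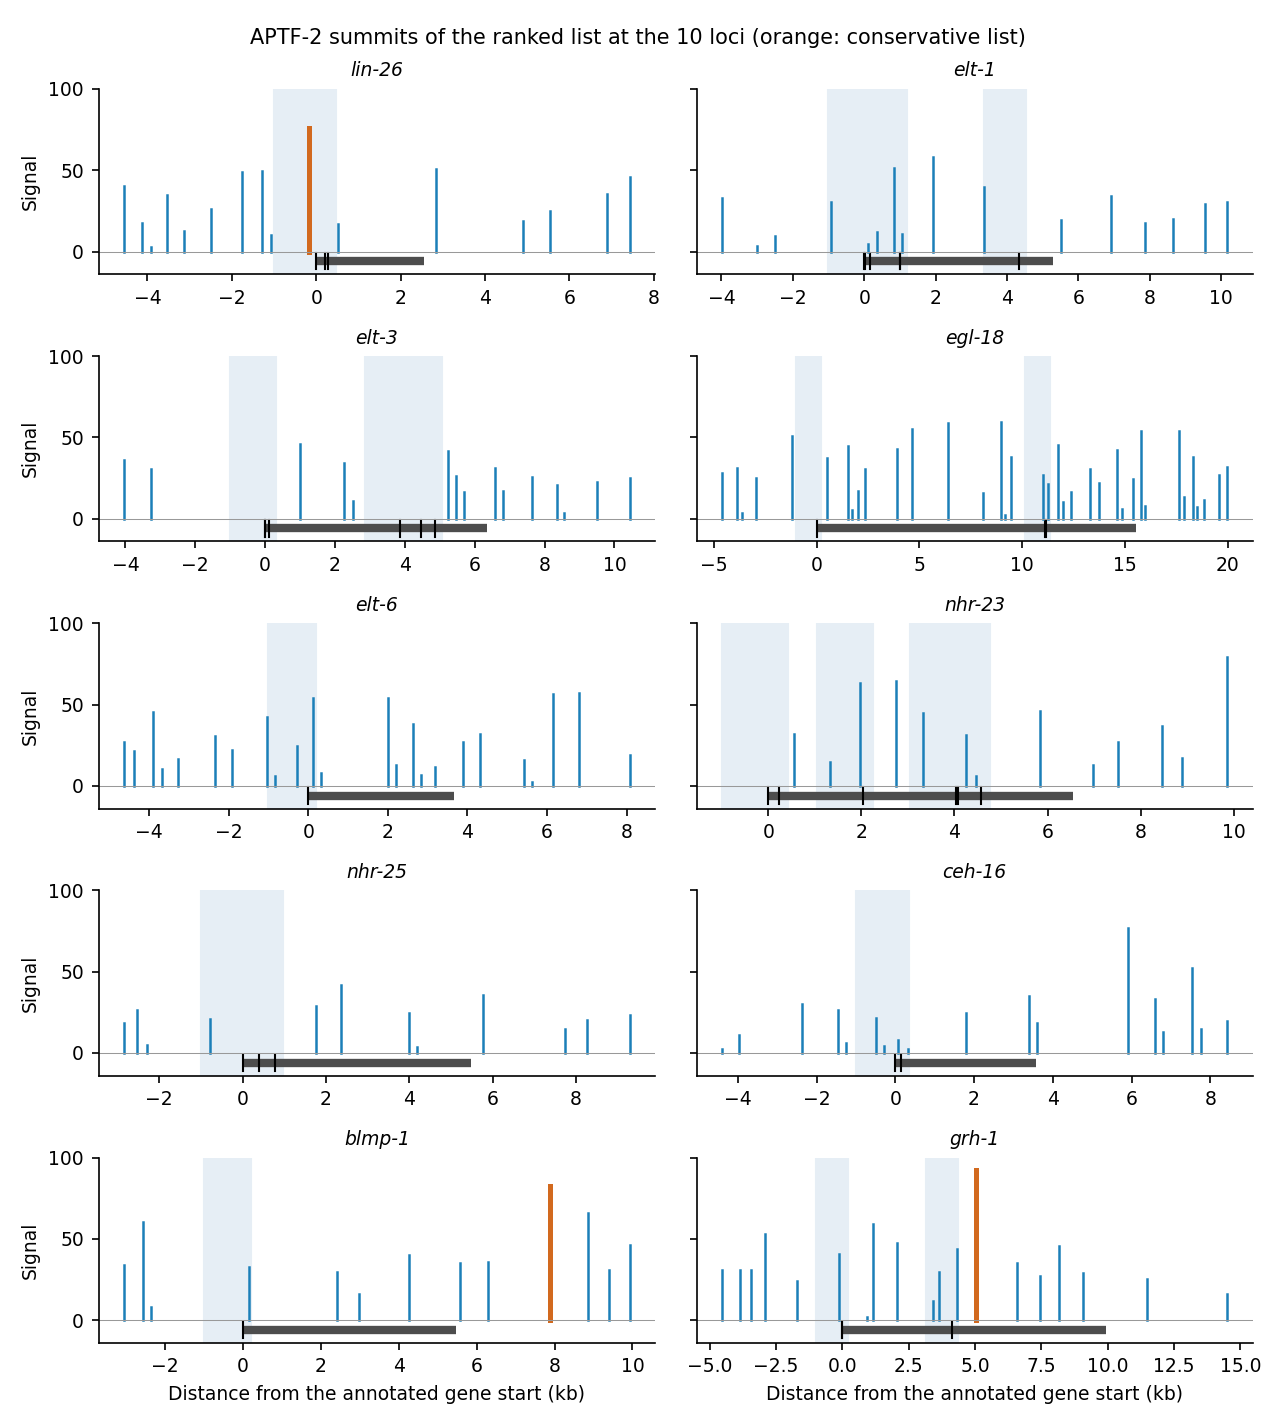
Summits of the ranked list along the 10 loci, each gene read from its 5′ end (grey bar, ticks at protein-coding starts) with 5000 bp on each side, by deposited signal, with the promoter windows shaded and summits of the conservative list in orange. Distances are from the outermost annotated end of the gene. lin-26 has the 1 orange summit inside a shaded window, and those of blmp-1 and grh-1 lie outside.

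Counting the whole gene and 5000 bp on each side, 3 of the 10 genes (lin-26, blmp-1 and grh-1) had a conservative summit, against 11.6% of all protein-coding genes. These 10 loci spanned 12.6 to 25.5 kb. A longer locus has more room for a summit, and the share over all genes was not matched for length. For the other 7 the nearest conservative summit was far from any start. It was 19747 bp away for nhr-23, 37295 bp for nhr-25 and 48588 bp for elt-3. It was 70942 bp away for egl-18 and 86597 bp for elt-6, which are neighbours and share it. It was 122017 bp away for elt-1 and 173047 bp for ceh-16. Over the 10 genes the median distance was 42942 bp.

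By order of ranked signal, lin-26, nhr-23, elt-6 and elt-1 came first with both replicates, at places of 96.1, 93.2, 88.2 and 86.2, followed by grh-1 at 77.9. The replicates separate only part of this order. Over the 2 replicates the place averaged 95.7 ± 1.03 for lin-26, 87.8 ± 3.72 for grh-1, 86.9 ± 2.76 for nhr-23, 83.0 ± 2.05 for elt-6 and 79.3 ± 9.35 for elt-1 (SD, n = 2 each). lin-26 was thus above the other 4 in both replicates, while the replicate values of grh-1 and nhr-23 overlapped, and those of elt-1 overlapped with the values of grh-1, nhr-23 and elt-6. elt-6 was below grh-1 and nhr-23 in both replicates, but above grh-1 in the joint list, so these neighbours were not told apart. The average was 78.4 ± 20.4 for nhr-25 (SD, n = 2), a spread too wide to order it. For blmp-1, elt-3 and ceh-16 no average is given, since 1 replicate had no summit and thus the place 0. Their places in the other replicate were 64.4 for blmp-1, 57.7 for elt-3 and 53.0 for ceh-16. These genes could not be ordered either, and egl-18 had no summit in either replicate. A place uses the strongest summit of a window, and for grh-1, elt-1 and nhr-25 that was not the same site in both replicates. For blmp-1 the strongest summit of replicate 2 was not the joint site, and replicate 1 had none. The median difference between the replicates' places was 9.24 percentage points for the 10 genes and 15.3 over all genes. Genes with no summit in either replicate count as no difference by construction. These were 5317 of 19973 genes overall and 1 of the 10, egl-18, so the medians do not compare reproducibility.

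Where in a gene the summits fell was also read. Of the 9 strongest promoter summits, 3 lay in coding exons (those of lin-26, elt-6 and blmp-1), and of the 10 strongest summits in each locus, 4 did (lin-26, elt-1, nhr-25 and grh-1). Over all protein-coding genes, 26.5% of 13553 strongest promoter summits and 32.6% of 9223 strongest summits of a locus lay in coding exons, so neither count stands apart from its background at this number of sites. Among the 892 conservative summits 62 (6.95%) lay in coding exons, 151 in introns and 508 between genes. The GC content of the 10 strongest locus sites had a median of 44.0% with a range of 30.3 to 52.2%, and that of the conservative summits had a median of 45.3%. The strongest promoter summits of all protein-coding genes had a median of 38.8%. Those are sites of another kind, and no GC content was computed for the strongest locus summits of all genes. The value of the 10 locus sites thus has no like background here.

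Short motifs were then looked up on both strands in the 201 bp around each site. The palindrome GCCNNNGGC, the core that AP-2 proteins of mammals read, was at none of the sites examined for the 10 genes, which include the strongest in each window and in each locus. It was present at 24 of 892 conservative summits (2.69%) and at 195 of 13553 strongest promoter summits of protein-coding genes (1.44%), so at so few sites its absence says nothing about these genes. In the 1201 bp window at the most upstream start, nhr-25 held it and the other 9 genes did not, against 5.31% of 19972 protein-coding genes. GATAA was at 27.7% of conservative summits and at 35.7% of strongest promoter summits. Among the 9 strongest promoter summits of the set it was at those of elt-1 with 3 matches, nhr-23 with 2 and egl-18 and nhr-25 with 1 each, and the listed sites of lin-26, blmp-1 and grh-1 had no match. The egl-18 intron site shown above also holds TTTCCCGC, a form that E2F factors read, and AACCGG, a half-site of Grainyhead proteins. AACCGG was also at the nhr-23 promoter site, at the site by swsn-9 and, with 2 matches, at the listed blmp-1 site, and its shares were 4.37% of conservative summits and 5.36% of strongest promoter summits. AGGTCA, a half-site of nuclear receptors, was at the egl-18 promoter site and at the strongest elt-3 site, with shares of 8.41% and 6.28%. Of the E2F forms TTTCCCGC, TTTGGCGC, TTTCGCGC and TTTGCCGC, 1 was also at the site by polk-1. At least 1 of these forms was at 12.2% of conservative summits and at 4.6% of strongest promoter summits. A match is a description of the letters and not a site of binding.

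The same window was read for 5 further lists of genes, which hold 70 genes in all and were chosen with earlier results of these data known. None of the 70 had a conservative summit in the window, against 3.15% of all protein-coding genes, a share at which few of the 70 would be listed. At an IDR score of 540 or more, 4 of the 21 other epidermal and seam cell regulators and 1 of the 23 structural genes had a summit. This stands beside 1 of the 10, and 5.3% of all genes. In the thresholded list of replicate 1, 1 of the 21 had one and the 10 had none, against 1.46% of all genes. The 21 other epidermal and seam cell regulators had a median place of 83.2, beside 67.6 for the 10 genes, and 14 of them (66.7%) were in the upper 25% of genes. In replicate 2 alone the order turned, with a median of 74.4 for the 10 genes and 73.7 for the 21, and in replicate 1 the medians were 77.1 for the 10 and 85.0 for the 21. The highest 2 were lin-46, a timing gene, at 94.98 with a signal of 69.7, and unc-62, a homeobox gene, at 94.9 with a signal of 69.5. Their joined windows, with a median of 2191 bp, were as long as those of the 10 genes. The 23 epidermal structural and secreted genes, many of which encode cuticle or junction proteins, had a median place of 53.1. Of them 7 were in the upper 25%, led by ajm-1 with a signal of 67.5 and hmp-2 with 61.5, both of junctions. Within 5000 bp of the gene, 3 of the 21 and 5 of the 23 had a conservative summit, against 11.6% of all genes, not matched for length.

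The 7 GATA factor genes outside the set, which act mostly in the gut, had a median place of 50.7 and 1 in the upper 25%, med-1 with a signal of 51.2, followed by elt-7 with 40.9. The median of these 7 was 0 in replicate 1 and 68.0 in replicate 2, where 3 were in the upper 25%. The 15 regulators of other tissues had a median place of 61.8 (48.3 in replicate 1 and 65.4 in replicate 2), with 6 in the upper 25%, led by pha-4 of the foregut with a signal of 53.1 and skn-1 with 48.6. The 4 AP-2 family genes had a median place of 51.8 and none in the upper 25%, with signals of 40.5 at aptf-4 and 31.1 at aptf-3. In replicate 1 alone their median was 82.6 with 3 in the upper 25%, and in replicate 2 it was 55.4 with 1. These medians are a description, and no difference between the lists was tested.

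**Figure D4:**
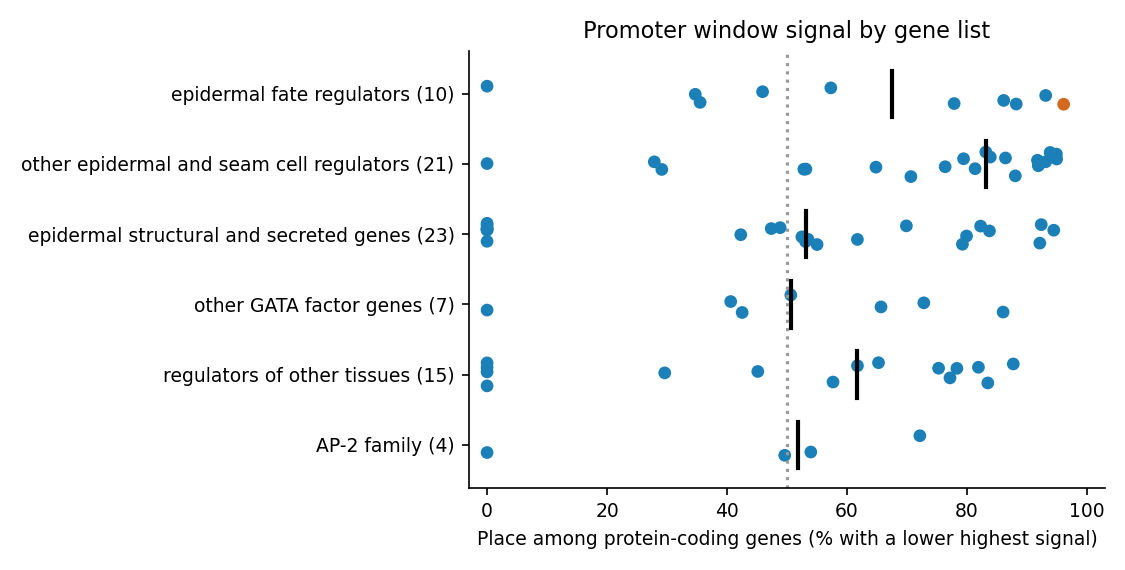
Place of each gene by highest ranked signal in its promoter window (0 to 100%, one point per gene) for the 10 epidermal fate regulators and 5 further lists, with the number of genes in brackets, black bars at the medians and a dotted line at 50. The 10 regulators spread from 0 to 96.1 with lin-26 in orange as the single gene with a conservative summit, and the lists overlap throughout. Of all protein-coding genes 3.15% had such a summit.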

How the data were processed

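APTF-2 peaks of 2 biological replicates of 1 group were used as deposited, on assembly ce11 per the labels. Per the README texts of the deposit, the authors made each list from the aligned reads of 1 replicate or of both together with another file, and the lists are ranked or thresholded by IDR. Which aligner and which peak caller made them was not given in the sources used here. Each deposited peak carries a signal whose scale the authors do not state, an IDR score up to 1000 set by the authors, and a deposited −log10 of the global IDR, from which the rates printed were computed. Without reads or counts, the depth of each replicate is unknown. A deeper library or a pooled list yields more and larger peaks, so signals were compared within a list only.

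Genes came from Ensembl release 115 (19973 protein-coding genes, 29314 starts on 6 chromosomes), whose chromosomes the peaks fit. A summit is the point source of a peak. GC content and motifs were read in 201 bp around it from the RefSeq genome of WBcel235, and copies were found with BLAST 2.17.0 as matches of at least 100 bp with at least 90% identity. The counting was checked on simulated peaks. Figures were drawn with matplotlib 3.10.9, intervals came from SciPy 1.17.1, and tables were handled in Python 3.11.15 with pandas 2.3.3 and NumPy 2.4.6.

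The members and the further lists were chosen with earlier results of these data known. All 10 members are named, and of each further list the 2 genes of highest ranked signal. A few neighbouring genes are named only to place a peak. Genes of like pattern were not sought, since there is 1 condition. Alternatives covered the other lists, each replicate alone, stricter and looser limits, other windows, overlap of any base, the nearest start, genes of like window length and the IDR score in place of signal.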

Additional observations from a re-analysis of the deposited data

How the results depend on the processing

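The count of 1 bound gene of the 10 rests on the lin-26 peak. It was 0 in the other thresholded list, 0 in the thresholded list of either replicate alone (range 0 to 0) and 0 in the stronger 50% of the conservative list, where 1.92% of all genes were bound. It remained 1, with lin-26, at an IDR score of 540 or more, with windows from 500 bp before to 100 bp after or from 2000 bp before to 500 bp after a start, and with any base of the peak counted. It was 3 over the gene body with 5000 bp on each side, against 11.6% of all genes, whose loci were not matched for length. The count was 2, lin-26 and grh-1, when each summit went to its nearest start within 2000 bp, against 3.16%. The median of the highest ranked signal was 38.3, counting elt-3 as 0. It was 39.9 in the other ranked list and 23.3 to 24.8 with 1 replicate left out, in lists whose median signals over all peaks were 19.2 and 19.5, against 26.7 in the ranked list of both replicates. The median place of 67.6 was 70.6 in the other ranked list, 74.4 to 77.1 with 1 replicate left out, 63.6 with the shorter window, 71.1 with the longer one, 62.6 among genes of like window length and 65.1 by IDR score. Fewer genes have a summit in the lists of 1 replicate, so places there are on another scale. With the shorter window elt-6 fell to 61.8, and nhr-25 and blmp-1 fell to 0. elt-3 stayed at 0, and lin-26, elt-1, egl-18, nhr-23, ceh-16 and grh-1 stood higher. The median distance to the nearest summit of 42942 bp was 57642 bp in the other thresholded list. The causes of these shifts were not tested. No paired analysis was possible because there is 1 group. Depth limits every absence here: with peak lists alone, a window without a summit shows that no peak was listed, not that APTF-2 was absent, and 2 replicates give a rough spread at most. Whole animals dilute binding in few cells, and the tagged protein was not compared with untagged animals. Only young adults were sampled, so a missing summit says nothing about binding at embryonic or larval stages.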
